A study of Homo sapiens with 4 samples.

Results

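The genes described here are the enzymes of glycolysis and gluconeogenesis, the hypoxia-inducible factor (HIF) alpha subunits and a set of HIF target genes, compared between Huh7 cells carrying a hairpin RNA that targets NUP210 and Huh7 cells carrying a control hairpin. They were chosen by name: a row was taken where its gene symbol equalled 1 of 35 listed symbols, which gave 33 of the 20226 genes in the tables, while LDHB and G6PC were not analysed here. Huh7 is an established line of hepatocyte-derived carcinoma. The shNUP210 group (genotype shNUP210 in the labels) and the shCon group (genotype wild type) had 2 libraries each, both untreated, and NUP210 encodes a glycoprotein of the nuclear pore complex. The series measured how expression changes genome-wide after NUP210 knockdown. The labels name no separate cultures, pools or clones behind the libraries, so the p-values here reflect library-to-library spread that may be technical.

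Glycolysis converts glucose to pyruvate in the cytosol. Hepatocytes can also run the route backwards, with separate enzymes (pyruvate carboxylase, phosphoenolpyruvate carboxykinase, fructose-1,6-bisphosphatase and glucose-6-phosphatase) at the irreversible steps. When oxygen is low, HIF alpha subunits escape prolyl hydroxylation and degradation, pair with ARNT and bind DNA at a core of ACGTG or GCGTG, which raises most glycolytic genes together with VEGFA, CA9, BNIP3 and others.

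Values are TPM, transcript abundances scaled for transcript length and to a fixed library total, which can be set side by side between genes. In the knockdown libraries NUP210 itself was at 10.1 and 9.85 TPM, against 32.82 and 27.28 TPM in shCon (log2 fold change -1.49, SE 0.24, limma adjusted p = 0.043). The number of genes at 1 TPM or more was 14564 and 14405 in shNUP210 and 13920 and 13675 in shCon. All 9 hepatocyte markers examined were at 1 TPM or more in every library, and they summed to 15002 and 15218 TPM in shNUP210 and 19769.63 and 19288.96 TPM in shCon. Of the 9, APOA1, SERPINA1 and TF were lower in both shNUP210 libraries, AFP, TTR and HNF4A were higher, and ALB, APOB and FGB overlapped between groups. The 4 fibroblast and stellate cell markers analysed summed to 19.23 to 36.21 TPM in shNUP210 and 10.65 to 15.21 TPM in shCon. The 3 leukocyte markers analysed (CD14, CD68 and LYZ) summed to 25.78 to 48.12 TPM in shNUP210 and 151.94 to 165.76 TPM in shCon. LYZ made up most of the leukocyte sum in shCon, and the defining genes PTPRC and CD3E and all 4 endothelial markers were not analysed here. The part of these levels in the results below was not tested. In bulk RNA, fewer cells of a type and less RNA per cell cannot be told apart.

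PC, a gluconeogenic enzyme gene, fell with the NUP210 hairpin, and no other member passed the test in TPM as deposited. Among those that did not pass, the mean log2 difference was below 0 for 9 of the 12 glycolytic genes tested. It was above 0 for other members, with the largest values for ADM, HIF1A and VEGFA. Of the 24 members tested, 12 lay below 0, while the median of all genes tested was above 0, at 0.23. Of the 33 genes, 24 reached 5 TPM in at least 2 libraries and were tested with limma on log2(TPM + 1), with adjustment over all 10140 genes tested. A gene is called at an adjusted p under 0.05. A single gene was called, PC, which fell, while 0 rose and 23 did not pass. Of all genes tested, 1.07% were called lower and 1.79% higher (2.86% either way), so a count of 1 in 24 is close to that background. At an unadjusted p under 0.05 there were 8 lower and 3 higher of the 24, against 5.95% lower and 18.4% higher of all genes. Both shNUP210 libraries lay below both shCon libraries for 11 of the 24 and above them for 7, where all genes gave 14.3% and 42.9% (57.3% either way). ADM passed the filter with a control library below 5 TPM, and the other 23 were at 5 TPM or more in every library. The median log2 fold change was -0.03 over the 24 and 0.23 over all genes tested, and 19 of the 24 lay below the latter.

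Whether the glycolytic genes pass depends on how the libraries are scaled. TPM as deposited shift the median gene upward by 0.23, and trimmed-mean scaling, which removes this shift, called 6 of the 24 lower (GPI, TPI1, GAPDH, ENO1, PCK2 and PC) and 0 higher, against 2.45% lower and 0.723% higher of all genes. Upper-quartile scaling added ALDOA (7 lower, background 2.74%), median-ratio scaling gave the same count of 6 (2.42%), and quantile normalization called PC alone (1.11%). The split of all calls moved with it, from 181 higher and 109 lower in TPM as deposited to 73 and 247 after trimmed-mean scaling. The shNUP210 libraries lay below both controls for 14 of the 24 after trimmed-mean scaling (26.9% of all genes) and median-ratio scaling (26.6%), for 16 after upper-quartile scaling (29.7%) and for 11 after quantile normalization (24.8%). They lay above both controls for 3 after trimmed-mean (26.2% of all genes), median-ratio (26.5%) and upper-quartile scaling (23%), and for 5 after quantile normalization (26.3%). The plot of fold changes under both scalings shows the shift.

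**Figure D1:**
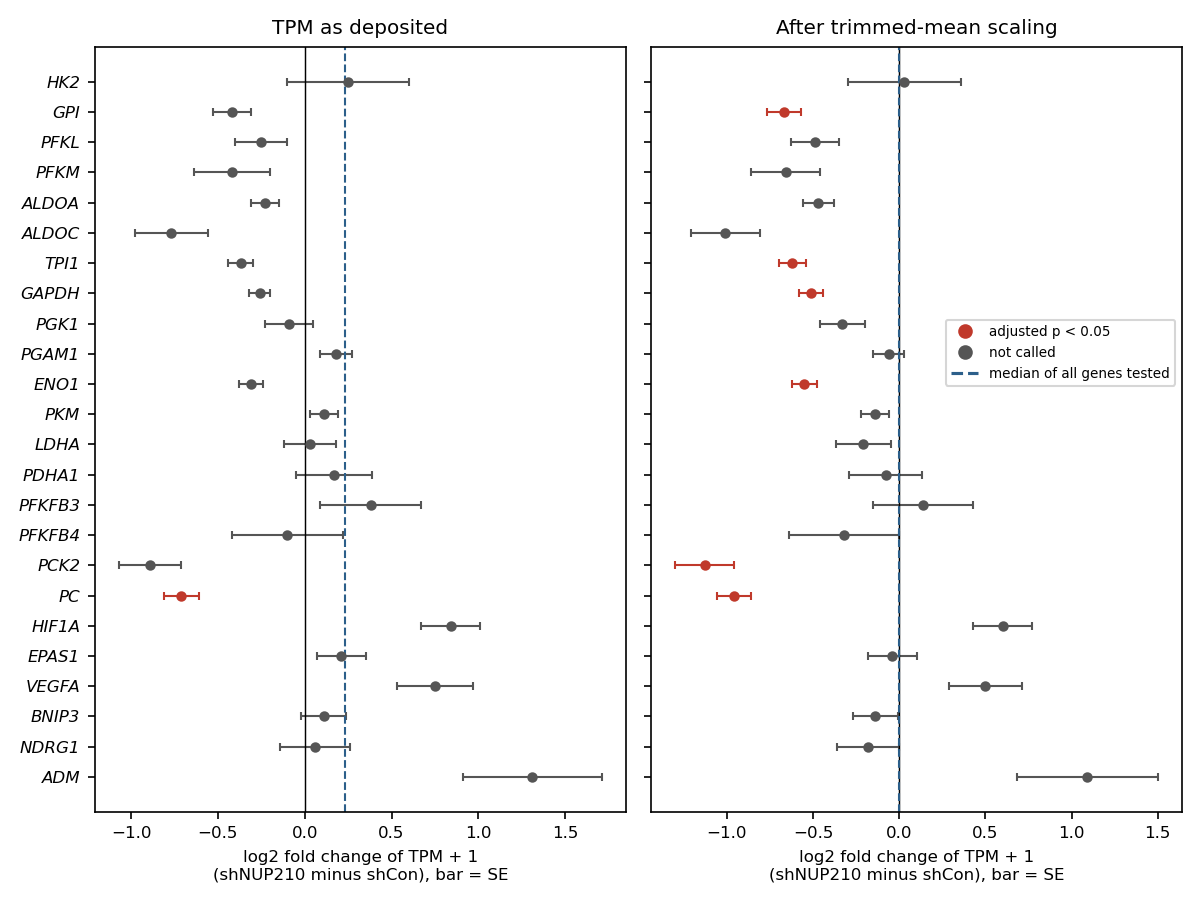
Log2 fold change of TPM + 1 (shNUP210 minus shCon; horizontal axis) of the 24 tested members (rows), with bars for the standard error, in TPM as deposited (left) and after trimmed-mean scaling (right). Red points have a limma adjusted p under 0.05 (1 gene at left, 6 at right), and the dashed line is the median of all genes tested, 0.23 at left and 0.00 at right.

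PC encodes pyruvate carboxylase, the mitochondrial enzyme that makes oxaloacetate from pyruvate for gluconeogenesis and for refilling the citric acid cycle. It is on chromosome 11 (66848233 to 66958376, minus strand, GRCh38). With the NUP210 hairpin PC was at 211.62 and 198.45 TPM, against 328.19 and 343.89 TPM with the control hairpin. The groups did not overlap, and the means were 205.0 ± 9.31 and 336.0 ± 11.1 TPM (SD, n = 2), or 0.61 of the control mean. The log2 fold change of PC was -0.71 (SE 0.10, limma adjusted p = 0.034). The PC call was lost when any library was left out (limma adjusted p 0.137 to 0.167) and with a filter of 1 TPM in 2 libraries (0.0619), with log2 fold changes of -0.76 to -0.66 without a library. Exons of PC overlap those of LRFN4 on the other strand, which was at 4.06 to 9.28 TPM, and whether reads were counted by strand is not stated in the sources.

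The window upstream of the first listed PC start is shown because PC is the called gene. It is set beside those of HIF1A, the HIF subunit with the larger fold change, and PKLR, a pyruvate kinase gene, at 0.493 of its control mean. HIF1A and PKLR were chosen after their values were seen. The PKLR window shown lies before the outermost annotated start of that gene. Which start of each gene is used in Huh7 cells was not tested. All 3 windows are the 250 bases before a RefSeq start on GRCh38.p14 (PC chr11:66958384-66958633, minus strand; HIF1A chr14:61695263-61695512, plus strand; PKLR chr1:155301439-155301688, minus strand), hold no base of a GENCODE exon, and are written 5′ to 3′ on the gene's strand. Capitals mark ACGTG or GCGTG on either strand.
PC: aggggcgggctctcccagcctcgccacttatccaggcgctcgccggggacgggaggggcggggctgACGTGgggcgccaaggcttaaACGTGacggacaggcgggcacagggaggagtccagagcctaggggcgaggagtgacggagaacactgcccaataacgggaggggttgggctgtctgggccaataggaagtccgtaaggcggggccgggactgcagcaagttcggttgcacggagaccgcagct
HIF1A: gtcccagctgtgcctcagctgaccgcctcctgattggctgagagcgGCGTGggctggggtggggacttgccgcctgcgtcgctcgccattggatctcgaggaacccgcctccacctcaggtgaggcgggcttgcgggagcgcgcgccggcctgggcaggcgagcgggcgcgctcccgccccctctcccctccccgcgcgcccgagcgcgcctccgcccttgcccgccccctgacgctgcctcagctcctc
PKLR: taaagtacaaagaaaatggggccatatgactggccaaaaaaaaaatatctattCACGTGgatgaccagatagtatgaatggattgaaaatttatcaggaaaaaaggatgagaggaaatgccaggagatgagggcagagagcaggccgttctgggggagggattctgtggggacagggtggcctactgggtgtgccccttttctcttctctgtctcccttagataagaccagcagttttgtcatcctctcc
The PC window holds ACGTG at 184 and 163 bases before the start. The HIF1A window holds GCGTG at 204 bases, and the PKLR window holds the palindrome CACGTG, where ACGTG matches on both strands and the matches overlap. Windows at the other listed starts of PC, HIF1A and PKLR, not shown, hold 0 ACGTG and 0 GCGTG. Starts were matched for 31 of the 35 names, and at the first listed start of each the window held ACGTG for 12 and GCGTG for 13. Of the 27305 promoters of that length searched, 18.7% held ACGTG and 31.9% GCGTG, and 43.1% held either. Matching letters are a description of these windows and not evidence of binding.

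Other gluconeogenic transcripts lay lower as well, without a call in TPM as deposited. PCK2, the mitochondrial phosphoenolpyruvate carboxykinase that turns oxaloacetate into phosphoenolpyruvate, was at 42.59 and 33.92 TPM in shNUP210 and 73.07 and 69.5 TPM in shCon. The groups did not overlap, and the log2 fold change of PCK2 was -0.89 (SE 0.18, limma adjusted p = 0.066), which did not pass in TPM as deposited. After trimmed-mean scaling it was -1.13, with a limma adjusted p of 0.037. The cytosolic enzyme gene PCK1 was listed at 0 in both shNUP210 libraries and at 0.19 and 0.96 TPM in shCon, so PCK2 made up 98.64% or more of the summed PCK TPM. FBP1, encoding fructose-1,6-bisphosphatase, was at 1.35 and 0.98 TPM in shNUP210 and 3.81 and 2.71 TPM in shCon. PCK1 and FBP1 were below the filter and have no test. At these low levels neither gene's groups overlapped. Of all genes tested, 14.3% had separate groups with shNUP210 below, and 57.3% had separate groups either way.

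In upper glycolysis, 7 of 9 genes were tested and 0 were called, where 2.86% of all genes were called. For 6 the groups did not overlap, with shNUP210 below, as for 14.3% of all genes (26.9% after trimmed-mean scaling). GPI, which interconverts glucose 6-phosphate and fructose 6-phosphate, was at 255.05 and 225.86 TPM in shNUP210 and 329.29 and 313.83 TPM in shCon (log2 fold change -0.42, SE 0.11, limma adjusted p = 0.097). TPI1, which interconverts the triose phosphates, was at 688.67 and 687.08 TPM against 895.87 and 885.63 TPM. The TPI1 libraries of a group lay close together beside the gap between groups, and the log2 fold change was -0.37 (SE 0.07, limma adjusted p = 0.061). Aldolase splits fructose 1,6-bisphosphate, and ALDOA supplied 98.74 to 99.3% of the summed aldolase TPM. ALDOA was at 2250.95 and 1950.22 TPM in shNUP210 and 2450.81 and 2449.52 TPM in shCon, and its log2 fold change of -0.23 shrank to -0.01 after quantile normalization. ALDOC, the minor isoenzyme here, was at 15.92 and 18.32 TPM against 31.23 and 28.58 TPM. Its log2 fold change of -0.77 (SE 0.21) was the lowest of the glycolytic genes tested, with a limma adjusted p of 0.11. ALDOC overlaps RP11-192H23.5 on the other strand, which was at 33.38 to 64.18 TPM.

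At the kinase steps of upper glycolysis a single isoenzyme made up most of the transcript sum. HK2, the hexokinase typical of tumour cells, supplied 88.65 to 96.14% of the summed HK1 and HK2 TPM. It was at 11.06 and 11.01 TPM in shNUP210 and 11.79 and 6.98 TPM in shCon, so the shNUP210 libraries lay between the control libraries. HK1 was at 0.28 to 1.41 TPM over the 4 libraries. PFKL, the liver phosphofructokinase, was at 95.89 and 103.02 TPM against 129.85 and 107.66 TPM, and PFKM, the muscle form, at 21.68 and 19.37 TPM against 30.46 and 25.22 TPM. Neither passed (limma adjusted p 0.34 and 0.29), and PFKL made up 80.68 to 84.17% of the summed phosphofructokinase TPM in every library. PFKP, the platelet form, was listed at 0 in both shNUP210 libraries and at 0.64 and 0.19 TPM in shCon.

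In lower glycolysis, 5 of 7 genes were tested and 0 were called, where 2.86% of all genes were called. The shNUP210 libraries lay below both controls for GAPDH and ENO1 (14.3% of all genes) and above them for PGAM1 and PKM (42.9%). All 5 had a log2 fold change below the median of all genes tested, 0.23. After trimmed-mean scaling, 0 of the glycolytic genes tested lay above both controls (26.2% of all genes). GAPDH, the dehydrogenase that yields NADH, was at 1693.25 and 1722.28 TPM in shNUP210 and 2052.05 and 2036.58 TPM in shCon (log2 fold change -0.26, SE 0.06, limma adjusted p = 0.084). Its exons overlap RP5-940J5.9 on the other strand, a row at 1562.59 and 1789.85 TPM in shNUP210 and 1570.71 and 1684.78 TPM in shCon. ENO1, the main enolase, was at 1005.48 and 974.11 TPM against 1246.8 and 1199.69 TPM (log2 fold change -0.31, SE 0.07, limma adjusted p = 0.081). PGK1, the first ATP-yielding kinase, was at 103.82 and 97.15 TPM in shNUP210 and 114.28 and 99.5 TPM in shCon, and the groups overlapped.

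PGAM1 and PKM had log2 fold changes above 0 in TPM as deposited, though below the median of 0.23 of all genes tested. PGAM1, the mutase between PGK1 and ENO1, was at 368.32 and 382.56 TPM in shNUP210 and 329.31 and 331.19 TPM in shCon (log2 fold change 0.18, SE 0.09, limma adjusted p = 0.26). PKM, the pyruvate kinase gene of most dividing cells, was at 595.94 and 603.92 TPM against 577.89 and 536.81 TPM (0.11, SE 0.08, limma adjusted p = 0.46). Both signs turned negative after trimmed-mean scaling (-0.06 and -0.14), median-ratio scaling (-0.06 and -0.14) and upper-quartile scaling (-0.11 and -0.19), so no direction can be given for either. PKLR, the isoenzyme of differentiated hepatocytes, was at 1.72 and 1.79 TPM in shNUP210 and 3.77 and 3.35 TPM in shCon, or 0.493 of the control mean, and was below the filter. It supplied 0.29 and 0.3% of pyruvate kinase TPM in shNUP210 and 0.65 and 0.62% in shCon. ENO2, the neuronal enolase, was at 1.18 and 4.36 TPM against 0.33 and 0.34 TPM, also below the filter.

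**Figure D2:**
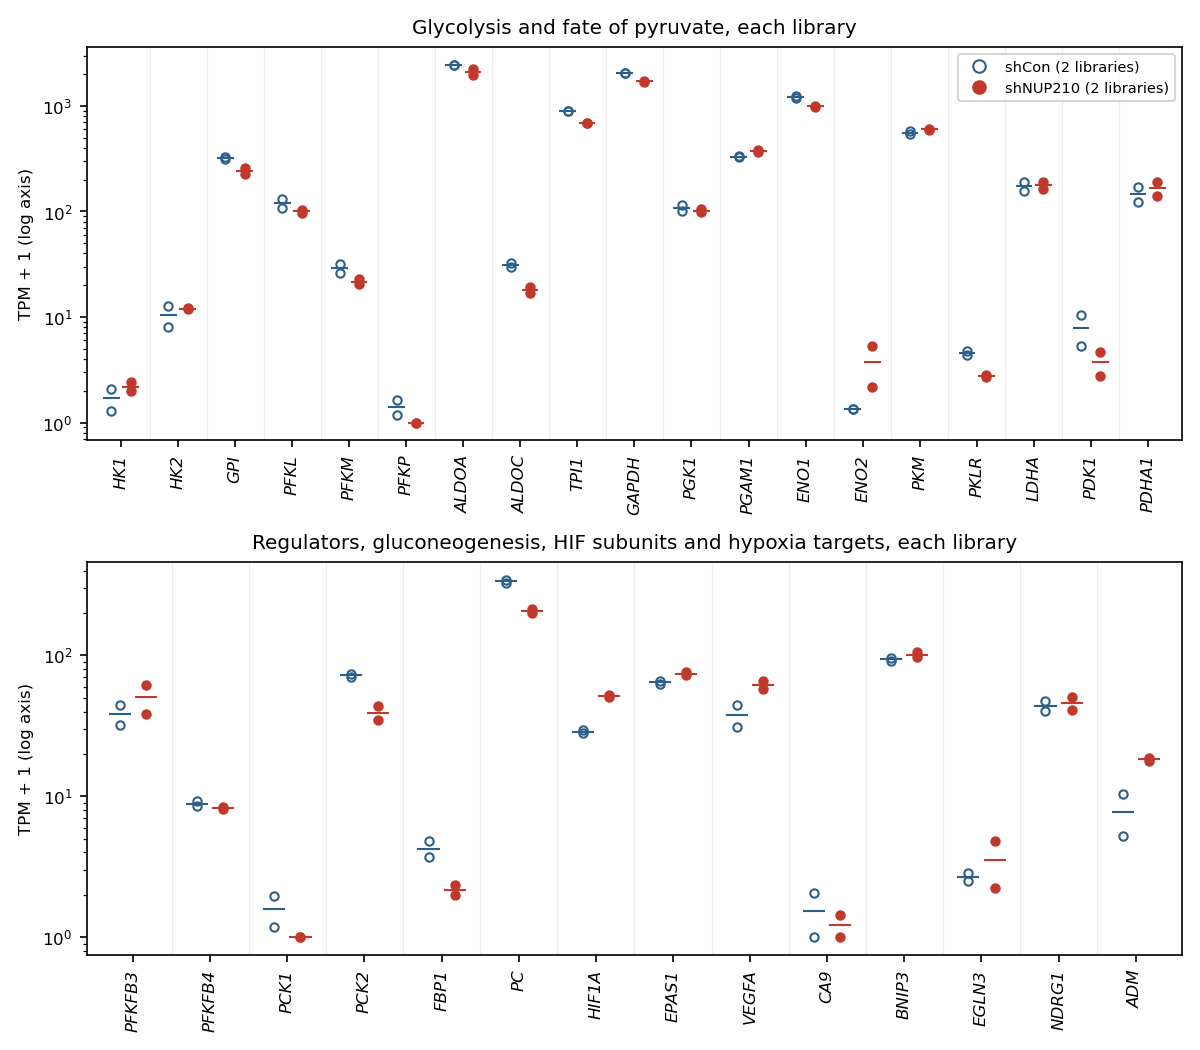
TPM + 1 (vertical log axis) of the 33 members (horizontal axis) in each library, with open circles for shCon, filled circles for shNUP210 and short bars for the mean of 2 libraries. Among the genes with separate groups, GPI, ALDOC, TPI1, GAPDH, ENO1, PCK2 and PC show shNUP210 circles below the shCon circles, and HIF1A, VEGFA and ADM show them above.

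Summed by enzymatic step, the shNUP210 mean was 0.816 of the control mean for phosphofructokinase, 0.854 for aldolase, 0.811 for enolase and 0.532 for phosphoenolpyruvate carboxykinase. The sums for phosphofructokinase were 117.57 and 122.39 TPM against 160.95 and 133.07 TPM, and for enolase 1006.66 and 978.47 TPM against 1247.13 and 1200.03 TPM. Hexokinase (ratio 1.21) had overlapping libraries, and its ratio was 0.948 without shCon replicate 2 and 1.68 without shCon replicate 1. Pyruvate kinase had a ratio of 1.07, which was 0.903 after trimmed-mean scaling. The sums are given as values, with no test.

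Over the whole chain, 12 of the 16 glycolytic genes were tested. Their median log2 fold change was -0.25 against 0.23 for all genes tested, 11 of the 12 lay below the latter, and 9 lay below 0. Under the other scalings 10 to 12 of the 12 lay below 0. The shNUP210 libraries lay below both controls for 8 of the 12 (14.3% of all genes) and, after trimmed-mean scaling, for 10 (26.9%). Level moved with this: among all genes tested, the median log2 fold change was 0.32 for a mean of 5 to 20 TPM, 0.23 for 20 to 100 TPM, 0.09 for 100 to 500 TPM and -0.07 from 500 TPM upward. The 5 members at 500 TPM and above (ALDOA, GAPDH, ENO1, TPI1 and PKM) had a median of -0.26, with 4 of 5 below 0, where 58.5% of the 277 genes at that level lay below 0. In the band from 100 to 500 TPM, the 7 members had a median of -0.09. The part of level in the glycolytic values was not tested.

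**Figure D3:**
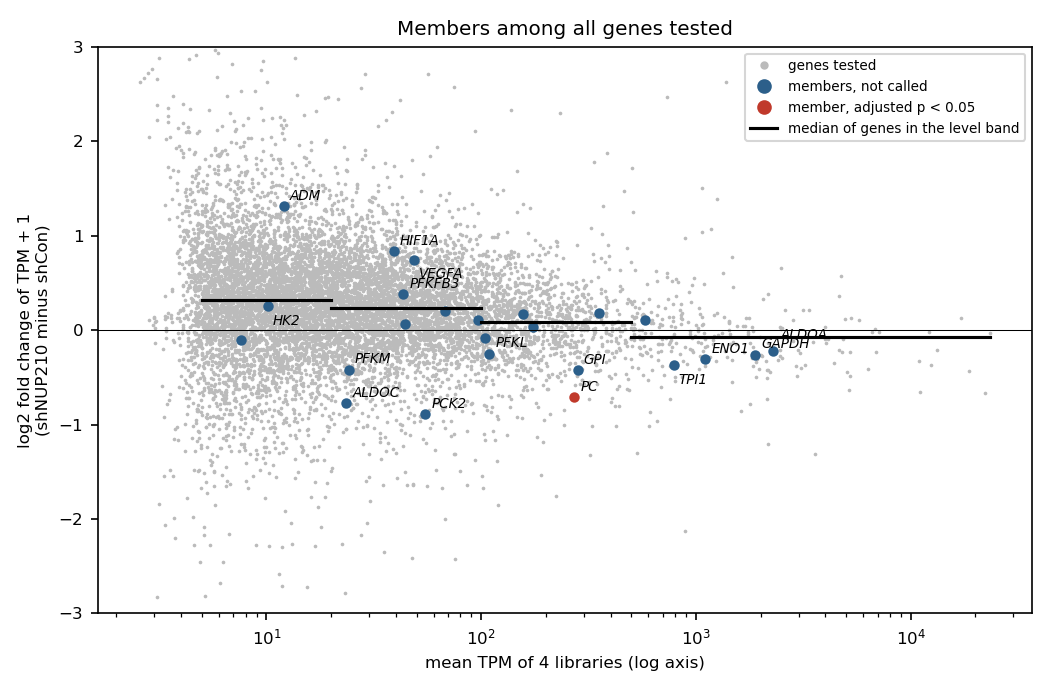
Log2 fold change of TPM + 1 (shNUP210 minus shCon; vertical axis) against mean TPM of the 4 libraries (log axis) for the genes tested, with members in blue (not called) or red (PC, called) and black lines for the median of all genes in each level band. The band medians go from 0.32 at 5 to 20 TPM to -0.07 from 500 TPM upward, and 44 genes with a fold change beyond 3 lie outside the axis.

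At the pyruvate branch no member passed and none had separate groups among those tested. LDHA, which reduces pyruvate to lactate, was at 191.0 and 160.78 TPM in shNUP210 and 154.96 and 188.77 TPM in shCon. PDHA1, the alpha subunit of pyruvate dehydrogenase, was at 140.22 and 189.65 TPM against 171.02 and 122.7 TPM. The groups overlapped for both genes, with log2 fold changes of 0.03 (SE 0.15) and 0.17 (SE 0.22). Exons of PDHA1 overlap MAP3K15 on the other strand, which was at 37.18 and 47.75 TPM against 27.14 and 24.15 TPM. PDK1, the HIF-induced kinase that inactivates pyruvate dehydrogenase, was at 3.67 and 1.78 TPM in shNUP210 and 9.45 and 4.33 TPM in shCon, below the filter. PDK1 overlaps AC093818.1 on the other strand, which was at 14.26 and 10.4 TPM in shNUP210 and 5.01 and 8.54 TPM in shCon. The bifunctional enzymes that set fructose 2,6-bisphosphate, the activator of phosphofructokinase, did not pass either. PFKFB3 was at 37.62 and 61.17 TPM against 43.3 and 30.98 TPM, and PFKFB4 at 7.44 and 7.12 TPM against 7.54 and 8.22 TPM.

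HIF1A was higher in both shNUP210 libraries. HIF1A, on chromosome 14 (61695513 to 61748259, plus strand), was at 51.4 and 49.66 TPM in shNUP210 and 27.06 and 28.61 TPM in shCon, or 1.82 times the control mean. HIF1A had a log2 fold change of 0.84 (SE 0.17) and did not pass (limma adjusted p = 0.068). Over 15 alternatives the HIF1A log2 fold change ranged from 0.55 to 0.88 and its limma adjusted p from 0.0527 to 0.223. EPAS1, which encodes HIF-2 alpha, was at 75.01 and 71.26 TPM against 61.22 and 65.35 TPM (log2 fold change 0.21, SE 0.14, limma adjusted p = 0.41), and its sign turned under trimmed-mean (-0.04), median-ratio (-0.03) and upper-quartile scaling (-0.09). By TPM level EPAS1 was above HIF1A in all 4 libraries.

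The HIF targets did not share 1 pattern. ADM, encoding the vasodilator peptide adrenomedullin, was at 17.69 and 16.87 TPM in shNUP210 and 4.23 and 9.32 TPM in shCon. The ADM groups did not overlap, the mean was 2.55 times the control mean, and the log2 fold change was 1.31 (SE 0.40, limma adjusted p = 0.13). VEGFA, encoding the main angiogenic growth factor, was at 57.04 and 65.32 TPM against 43.18 and 29.94 TPM (log2 fold change 0.75, SE 0.22, limma adjusted p = 0.13). VEGFA exons overlap RP1-261G23.7 on the other strand by 188 bases. That row was at 1228.87 TPM in shNUP210 replicate 2 and listed at 0 in the other 3 libraries. The part of this overlap in the VEGFA values was not tested. Neither ADM nor VEGFA was called under any alternative run.

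Other targets were nearly level between groups. BNIP3, a mitophagy receptor, was at 104.25 and 95.81 TPM in shNUP210 and 90.06 and 95.39 TPM in shCon, and the lower shNUP210 library lay 0.42 TPM above the higher control. NDRG1, a stress-responsive gene, was at 49.99 and 40.28 TPM against 46.87 and 39.2 TPM. CA9, the membrane carbonic anhydrase used as a hypoxia marker, was near 0, at 0.0 and 0.43 TPM in shNUP210 and 1.05 and 0.0 TPM in shCon. EGLN3, a prolyl hydroxylase that is itself HIF-induced, was at 1.25 and 3.85 TPM against 1.85 and 1.52 TPM. CA9 and EGLN3 were below the filter, and the 4 tested targets had a median log2 fold change of 0.43 against 0.23 for all genes. Of these 4, 0 were called, where 2.86% of all genes were called.

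A wider list of 32 HIF targets held genes at both ends. Of its 26 tested members, 2 fell and 0 rose (background 1.07% and 1.79%), and 24 did not pass. The groups did not overlap for 8 lower and 8 higher, where all genes gave 14.3% and 42.9%. At an unadjusted p under 0.05 there were 8 lower and 4 higher, where all genes gave 5.95% and 18.4%, and the median log2 fold change was 0.13. SLC16A3, the lactate exporter MCT4, fell from 163.27 and 146.35 TPM in shCon to 72.05 and 74.4 TPM in shNUP210 (log2 fold change -1.07, SE 0.13, limma adjusted p = 0.026). STC2, encoding the secreted glycoprotein stanniocalcin 2, fell from 50.38 and 38.42 TPM to 11.75 and 16.27 TPM (-1.60, SE 0.26, limma adjusted p = 0.046). Both calls were lost when any library was left out (limma adjusted p 0.115 to 0.137 and 0.125 to 0.166), and exons of SLC16A3 overlap CSNK1D on the other strand, which was at 111.57 to 138.64 TPM. A further 6 lower and 4 higher genes had an unadjusted p under 0.05 and did not pass the test. SLC2A1, the glucose importer GLUT1, was at 46.02 and 68.62 TPM in shNUP210 and 104.04 and 89.04 TPM in shCon, and DDIT4, an inhibitor of mTORC1, at 14.55 and 10.69 TPM against 33.65 and 28.14 TPM. DDIT4 exons overlap RP11-442H21.2 on the other strand, a row at 36.17 and 47.11 TPM in shNUP210 and 119.72 and 116.33 TPM in shCon. In the other direction KDM3A, a histone H3 lysine demethylase, was at 10.9 and 15.3 TPM against 4.92 and 4.21 TPM, and ANKRD37 at 10.19 and 10.86 TPM against 4.26 and 4.58 TPM. IGFBP3, a binding protein of insulin-like growth factors, was at 7.8 and 13.58 TPM against 2.98 and 1.86 TPM, and EPO, encoding erythropoietin, at 3.55 and 0.0 TPM against 9.43 and 12.18 TPM. KDM3A, ANKRD37 and IGFBP3 passed the filter only through shNUP210 and EPO only through shCon, the group where each was high, so a difference was built into their selection. The log2 fold changes of the others were -0.83 for PLOD2, -0.89 for LOX, -0.75 for FAM162A and 0.58 for PLIN2.

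**Figure D4:**
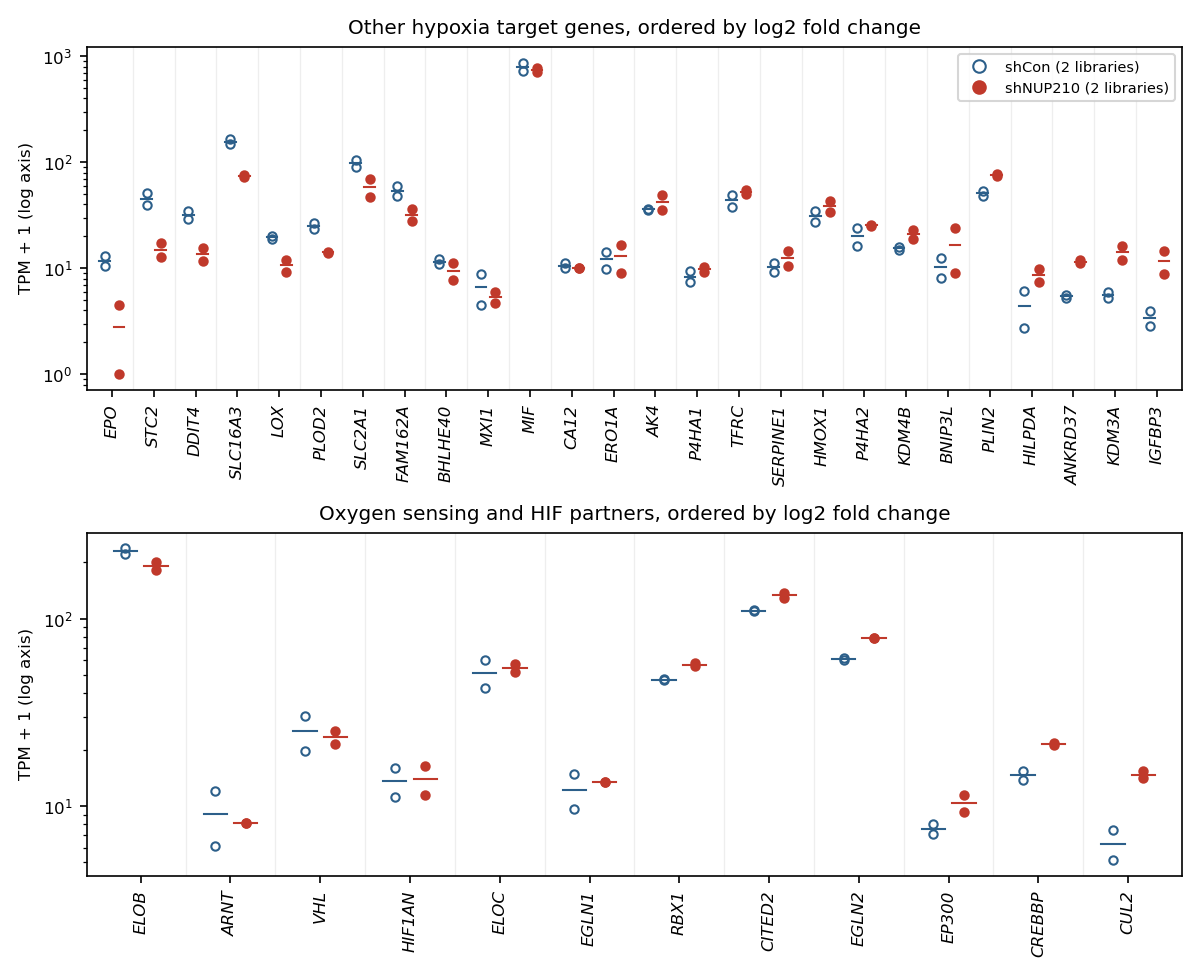
TPM + 1 (vertical log axis) in each library for the 26 tested genes of the wider HIF target list (top) and the 12 tested genes of oxygen sensing (bottom), ordered along the horizontal axis by log2 fold change, with open circles for shCon, filled circles for shNUP210 and bars for group means. SLC16A3 and STC2 at upper left fell, and the other genes did not pass the test.

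The genes that sense oxygen and partner HIF showed 0 calls among 12 tested of 15, where 2.86% of all genes were called. Their median log2 fold change was 0.22, against 0.23 for all genes tested. ARNT, the obligate partner of HIF alpha, was at 7.11 and 7.15 TPM in shNUP210 and 11.08 and 5.14 TPM in shCon, and VHL, which marks hydroxylated HIF alpha for degradation, at 24.24 and 20.51 TPM against 18.78 and 29.39 TPM. Both overlapped between groups. CUL2, the cullin scaffold of the VHL ubiquitin ligase, was at 14.44 and 13.05 TPM against 4.15 and 6.45 TPM (log2 fold change 1.25, SE 0.34, limma adjusted p = 0.11). CUL2 passed the filter with a control library below 5 TPM, and it was named after its values were seen.

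Neighbouring routes of glucose use gave 1 further call, where 1.07% of all genes were called lower and 1.79% higher. Of 8 pentose phosphate genes tested, TKT, the transketolase that returns pentoses to glycolysis, fell from 539.08 and 512.54 TPM in shCon to 340.17 and 359.38 TPM in shNUP210 (log2 fold change -0.59, SE 0.09, limma adjusted p = 0.040). The TKT call was lost when any library was left out (limma adjusted p 0.146 to 0.162). PGLS, the lactonase of the oxidative branch, was at 82.35 and 79.86 TPM against 119.95 and 121.32 TPM and did not pass (limma adjusted p = 0.073).

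Of 10 tested genes of glycogen metabolism 0 were called. PYGB, a glycogen phosphorylase, was at 98.33 and 92.9 TPM in shNUP210 and 57.54 and 50.63 TPM in shCon (limma adjusted p = 0.053), while the liver phosphorylase PYGL was at 30.6 and 28.37 TPM against 29.85 and 29.47 TPM. UGP2, which makes UDP-glucose, had means of 42.9 TPM in shNUP210 and 17.01 TPM in shCon (limma adjusted p = 0.071), and PGM1, which supplies glucose 1-phosphate, at 33.47 and 28.24 TPM against 53.41 and 46.8 TPM (0.11). Of 8 tested genes of the pyruvate dehydrogenase complex and pyruvate entry, and of 7 tested other isoenzymes, 0 were called. PDK2, a pyruvate dehydrogenase kinase, was at 29.07 and 20.07 TPM against 13.63 and 5.12 TPM, and TIGAR, which lowers fructose 2,6-bisphosphate, at 12.18 and 6.85 TPM against 1.73 and 3.42 TPM (limma adjusted p 0.15 and 0.14). TIGAR passed the filter only through shNUP210, where it was high. Over all 71 tested genes of these 6 lists, 3 fell (TKT, SLC16A3 and STC2) and 0 rose, where 1.07% of all genes were called lower and 1.79% higher. At an unadjusted p under 0.05 there were 12 in each direction, where all genes gave 5.95% lower and 18.4% higher.

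Reads of glycolytic genes can be shared with processed pseudogenes. Rows named as pseudogene copies were found for TPI1, GAPDH, PGK1, PGAM1, ENO1, LDHA and BNIP3, with 9 rows for GAPDH. They summed to at most 0.219% of GAPDH TPM, 0.697% of TPI1 TPM and 2.394% of LDHA TPM in any library.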

How the data were processed

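RNA of 2 shNUP210 and 2 shCon libraries of Huh7 cells was sequenced from Illumina TruSeq libraries, per the labels' protocols. The authors deposited 1 table of TPM per library, a unit read here from column totals of 999992.7 to 999997.8. The tools named, per the submitters' processing notes, are RSEM, STAR, Trimmomatic and DESeq, and the build hg38; versions, annotation release and read strand are not given in the sources used here. TPM keep no read depth, so depth is unknown and no counting intervals are given.

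Groups came from the titles. Genes with at least 5 TPM in 2 libraries were tested with limma 3.58.1 (R 4.3.3) on log2(TPM + 1), two-sided, with a mean-variance trend and Benjamini-Hochberg adjustment over all genes; this scale understates changes of low genes. A filter satisfied by 1 group alone favours genes that differ. Members, lists and settings were chosen with earlier results of these data known. All members are named, and pathway genes if called; those named otherwise were chosen after their values were seen. Positions and exon overlaps (100 bases or more) are from GENCODE 29 on GRCh38, and promoter windows from RefSeq. The fit was tested on simulated data. Alternatives were 4 scalings, 2 pseudocounts, 3 filters, no trend, a replicate block and leaving out each library. Leaving out a library leaves 1 in its group, which is assumed to vary like the other.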

Additional observations from a re-analysis of the deposited data

How the results depend on the processing

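Of the 24 tested members 1 was called, and 6 were after trimmed-mean scaling, 6 after median-ratio scaling, 7 after upper-quartile scaling and 3 with 5 TPM in all 4 libraries. The count was 0 with 1 TPM in 2 libraries, with no filter, with the replicate block, without the mean-variance trend and, as a range, 0 to 0 with any library left out. Over the whole table, 290 calls became 14 with no filter, 57 with 1 TPM in 2 libraries, 518 with 5 TPM in all 4 libraries, 0 without the trend and 4 to 27 with a library left out. The 3 called pathway genes became 5 after trimmed-mean, median-ratio or upper-quartile scaling, all of them lower. With 5 TPM in all 4 libraries 7 were called, 5 lower and 2 higher, where 518 of 8015 genes were called. None was called with 1 TPM in 2 libraries, no filter, no trend or the block. The cause of these changes was not tested. By design, fits without a library use fewer samples, and filters change which genes are fitted and adjusted over.

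The labels share replicate numbers 1 and 2 and do not say whether same-numbered libraries were paired. The deviations of same-numbered libraries correlated at 0.0231 across 10140 genes. With 2 libraries per group, that value cannot show whether same-numbered libraries share a culture or batch. With the replicate block, 63 genes were called in all and 0 members, and PC had a limma adjusted p of 0.0712.

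The PC fold change kept its sign in all 15 alternatives and its call in 7. Of 359 member values under alternatives, 299 kept direction and side of the threshold, 18 newly passed, 8 (all of PC) no longer passed, and 34 changed sign, each with a limma adjusted p above 0.2. After trimmed-mean, median-ratio and upper-quartile scaling the log2 fold changes were -0.06, -0.06 and -0.11 for PGAM1, -0.14, -0.14 and -0.19 for PKM, -0.21, -0.21 and -0.26 for LDHA, -0.08, -0.07 and -0.13 for PDHA1, -0.04, -0.03 and -0.09 for EPAS1, -0.14, -0.13 and -0.19 for BNIP3, and -0.18, -0.17 and -0.23 for NDRG1. HK2 was at -0.02 after upper-quartile scaling. After quantile normalization HK2, LDHA, BNIP3 and NDRG1 were at -0.05, -0.07, -0.04 and -0.16. Without a library the signs of HK2 (-0.09 to 0.59), PGK1 (-0.18 to 0.01), LDHA (-0.11 to 0.18), PDHA1 (-0.07 to 0.41) and NDRG1 (-0.09 to 0.22) changed.

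Step ratios after trimmed-mean, median-ratio and upper-quartile scaling were 0.688, 0.691 and 0.665 for phosphofructokinase, 0.718, 0.721 and 0.694 for aldolase, 0.683, 0.685 and 0.66 for enolase and 0.903, 0.907 and 0.873 for pyruvate kinase. Upper-quartile scaling gave 0.432 for phosphoenolpyruvate carboxykinase, and quantile normalization 0.985 for aldolase and 0.787 for enolase. Leaving out libraries for these ratios was chosen after seeing the data. The lactate dehydrogenase step was not summed, since LDHB was not analysed here.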
